A study of Mus musculus with 4 samples.

Results

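The ERK feedback genes Spry1, Spry2, Spry4, Spred1, Spred2, Dusp4, Dusp5, Dusp6, Etv4 and Etv5 were taken by symbol from a table of 20325 genes, and all 10 were present. They were measured by RNA sequencing in C3H10T1/2 cells, a multipotent mesenchymal line made from C3H mouse embryos and grown in DMEM with fetal bovine serum. One group stably expressed wild type histone H3.3 carrying a FLAG-HA tag (WT, 2 libraries) and the other stably expressed the same tagged histone with lysine 36 replaced by methionine (K36M, 2 libraries), a substitution known to inhibit H3K36 methyltransferases. Both groups therefore carried a tagged H3.3 transgene, and no library of cells without a transgene was analysed here. The sources used here name neither the promoter of the transgene nor whether a group was a single clone or a pool. They also do not state that the 2 libraries of a group came from separate cultures. Each p-value of the gene test therefore reflects spread between libraries that could be technical repeats, estimated largely from other genes.

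Growth factor receptors activate RAS, and RAS activates the kinase chain RAF, MEK and ERK. ERK enters the nucleus and raises transcription of genes that in turn act on the pathway. The Sprouty and Spred proteins act near receptors, RAS and RAF, the phosphatases encoded by Dusp4, Dusp5 and Dusp6 remove phosphate from ERK and related kinases, and Etv4 and Etv5 are ETS-family transcription factors of the PEA3 group that carry the signal to further genes. In mesenchyme these genes are widely used as transcript readouts of fibroblast growth factor signalling. ERK phosphorylation itself was not measured in these libraries.

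The libraries held 23343297 to 56041798 expected counts (read numbers estimated per gene), the K36M pair being the deeper. Values are given as CPM, the expected count of a gene per 1000000 counts of the library's effective size, and a gene was called changed at a Benjamini-Hochberg adjusted p under 0.05 over the 13162 genes that passed a low-count filter. Across genes, which are not independent replicates, log2 CPM correlated at 0.994 between the WT libraries, 0.996 between the K36M libraries and 0.885 to 0.887 between groups. Of the endogenous H3.3 genes, H3f3a stood at 687 to 694 CPM in WT and 389 to 409 CPM in K36M. H3f3b, the more abundant, stood at a mean of 1000 CPM in WT and 828 CPM in K36M (log2 fold change -0.27). The sources used here do not say whether transgene reads were counted on either gene. Of 12 mesenchymal markers 4 were called higher and 6 lower, and their sum was 50198 to 50537 CPM in WT and 30277 to 32107 CPM in K36M. Among those that fell were Fn1 (18110 and 5953 CPM, mean of WT and of K36M), Col3a1 (5488 and 1907) and Vim (7638 and 5240). The 4 that rose were Col1a1 (7748 and 10194), Twist1 (21.3 and 39.0), Twist2 (12.2 and 30.6) and Thy1 (3.17 and 35.5). Prrx1 did not pass the test (797 to 852 CPM in the 4 libraries). The summed level of 9 blood and macrophage markers was 7.22 to 7.95 CPM in WT and 40.6 to 42.1 CPM in K36M. In K36M most of it was the alpha globin gene Hba-a1 (25.3 and 26.7 CPM), which had 2 and 6 counts in WT. In WT the largest part was Cd14 (mean 4.01 CPM, 6.30 in K36M). Lyz2 (1.77 to 6.33 CPM) and Csf1r (0.185 to 0.486 CPM) also rose. Ptprc, the pan-leukocyte marker, had 0 counts in both WT libraries and 8 and 7 in K36M, and the beta globin entry Hbb-b1 had 0 counts in all 4. The 8 epithelial markers summed to 11.1 to 12.2 CPM in WT and 24.4 to 25.8 CPM in K36M, with Epcam at 0 counts in all 4; Cdh1 rose (mean 5.73 to 23.2 CPM) and Krt14 fell (5.61 to 0.747 CPM). The 6 endothelial markers summed to 28.0 to 29.8 CPM in WT and 6.76 to 7.34 CPM in K36M, with Pecam1 at 1 to 7 counts. In WT nearly all of that sum was Tek (mean 28.1 CPM). In K36M Tek fell to a mean of 4.73 CPM, while Cdh5 rose (0.641 to 2.06 CPM) and made up much of the rest. The 6 neural and glial markers summed to 182 to 183 CPM in WT and 62.3 to 63.2 CPM in K36M, with Olig2 at 0 counts; most of it was Map2 (mean 165 and 35.7 CPM), while Tubb3 rose (13.1 to 25.2 CPM). These marker levels moved with the groups, and their part in the results below was not tested.

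Of the 10 feedback genes, 7 rose in K36M cells (Spry1, Spred2, Dusp4, Dusp5, Dusp6, Etv4 and Etv5), 1 fell slightly (Spred1), and 2 did not pass the test (Spry2 and Spry4). All 10 passed the low-count filter, and each of the 7 that rose was at least 2-fold higher. Over all genes tested with edgeR, 75.6% were called, 38.5% higher and 37.1% lower, 12.7% were called and at least 2-fold higher, and 8.69% called and at least 2-fold lower. The median log2 fold change (K36M minus WT) was 1.34 over the 10 genes and 0.0035 over all genes tested. The 2 groups did not overlap for 8 of the 10, against 87.1% of all genes tested. Since bulk RNA was sequenced, more cells expressing a gene and more RNA per cell cannot be told apart.

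**Figure D1:**
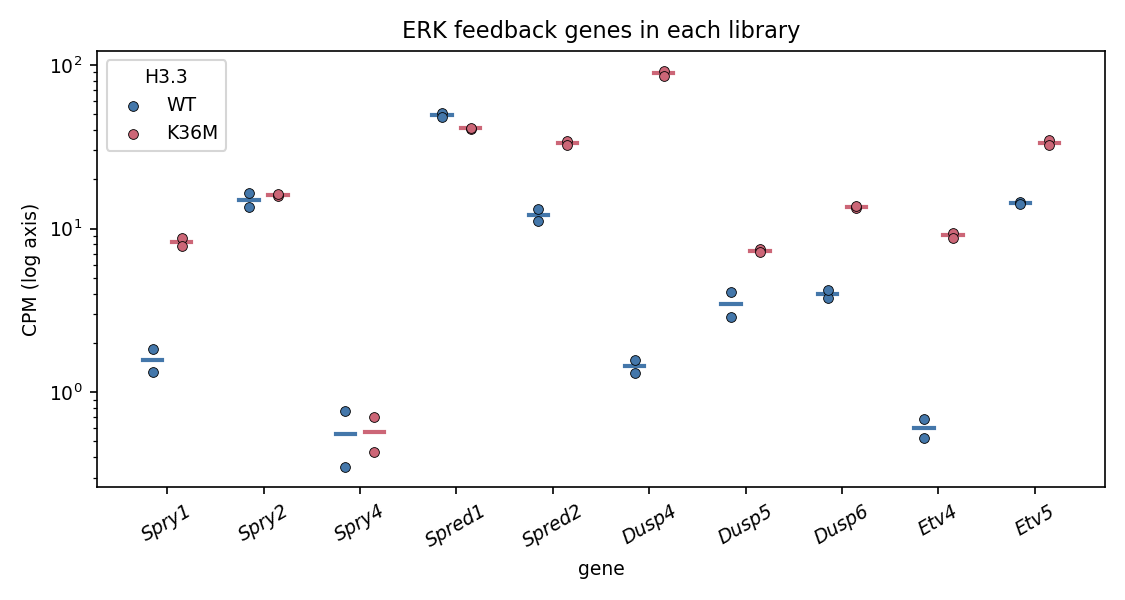
CPM of each of the 10 feedback genes (horizontal axis) on a log axis, with 1 point per library (WT blue, K36M red) and a bar at the mean of 2 libraries. The K36M points lie above the WT points for 7 genes, overlap them for Spry2 and Spry4, and lie below them for Spred1.

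**Figure D2:**
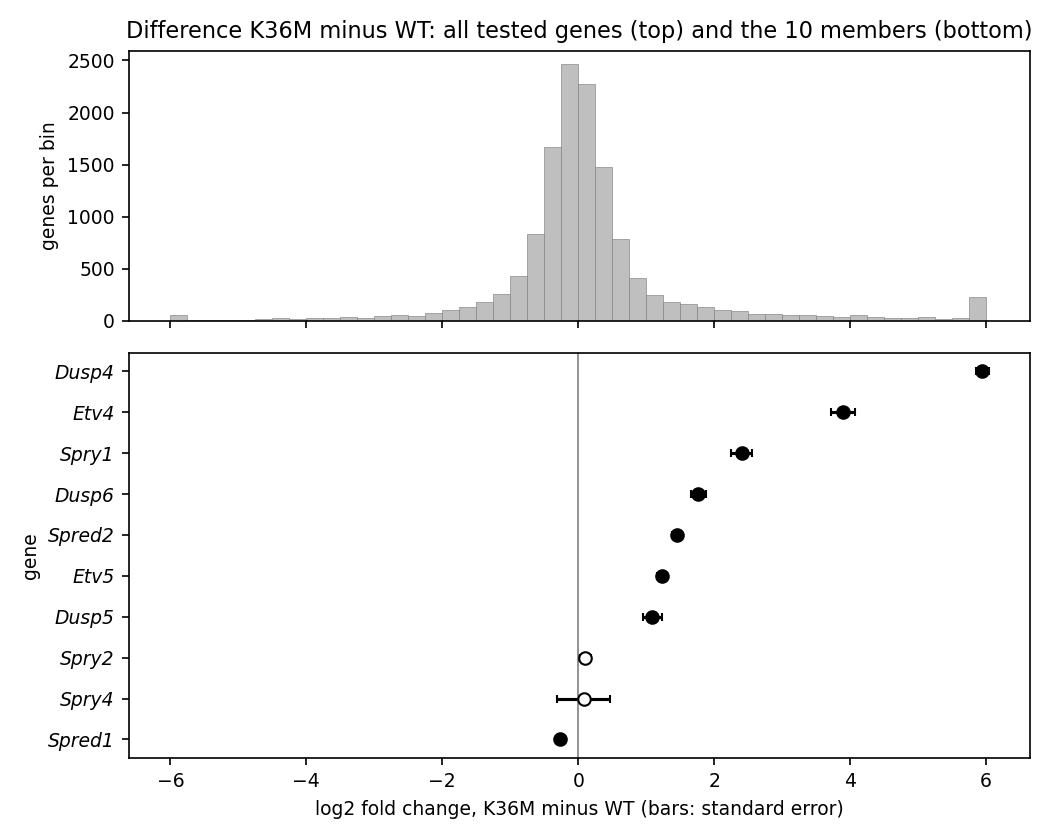
Top, the number of tested genes in bins of log2 fold change (K36M minus WT), the end bins holding all genes beyond the axis. Bottom, the log2 fold change of the 10 feedback genes with its standard error, filled where called: Dusp4 (5.95) and Etv4 (3.90) lie far out, and Spred1 (-0.27) is the 1 called gene below 0.

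The Sprouty genes encode membrane-associated inhibitors of receptor tyrosine kinase signalling, and of the 3 measured only Spry1 passed the test. Spry1 stood at 1.33 and 1.82 CPM in the WT pair against 8.73 and 7.80 CPM in the K36M pair. Both K36M libraries were above both WT libraries, a 5.30-fold rise (log2 fold change 2.40 ± 0.15 SE, adjusted p = 7.27e-11). Spry2 stood at 13.5 and 16.4 CPM in the WT pair against 15.8 and 16.3 CPM in the K36M pair, so its 2 K36M values lay between its 2 WT values. Its log2 fold change was 0.10 with a 95% interval of -0.08 to 0.29 (adjusted p = 0.294), and without WT replicate 2 it was 0.24 and past the threshold (adjusted p = 0.0372), while without WT replicate 1 it was -0.035. Spry4 was near the limit of detection, with 19 and 8 counts in WT and 40 and 15 in K36M, or 0.767 and 0.348 against 0.704 and 0.432 CPM. The groups overlapped, and its 95% interval of the log2 fold change, -0.73 to 0.89, is wide, so a difference within it is not excluded. In the reference annotation an unclassified transcript (Gm42922) on the opposite strand overlaps the Spry1 exons, and the sources used here do not say whether strand was counted.

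Spry1 and Spry2 are paralogues whose 95% intervals of the log2 fold change lay apart (2.08 to 2.73 against -0.08 to 0.29; the difference between them was not tested), and the 250 bases before their starts are shown for that reason. Sequences come from RefSeq (build GRCm38.p6, while the counts were made on mm9), and 7 of the 10 genes were matched to a promoter entry. The selection left out a whole chromosome and entries of other lengths, so a gene without a window here may still have an entry. Both strands were searched for the core that ETS factors bind, GGAA. A longer ETS form, CCGGAAG, which contains that core, was searched as well. The AP-1 site was searched as TGANTCA. The cyclic AMP response element was searched in its full palindromic form, TGACGTCA. The CArG box, the site of serum response factor, was added after the sequences were seen. Capitals mark GGAA, read as TTCC on the other strand, and the CArG box.
Spry1 (chr3:37639697-37639946, plus strand): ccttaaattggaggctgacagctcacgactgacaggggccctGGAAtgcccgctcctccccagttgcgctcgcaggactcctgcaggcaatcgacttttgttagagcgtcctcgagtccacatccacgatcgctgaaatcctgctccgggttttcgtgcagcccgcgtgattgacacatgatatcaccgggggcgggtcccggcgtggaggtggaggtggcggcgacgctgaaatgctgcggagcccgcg
Spry2 (chr14:105896820-105897069, minus strand): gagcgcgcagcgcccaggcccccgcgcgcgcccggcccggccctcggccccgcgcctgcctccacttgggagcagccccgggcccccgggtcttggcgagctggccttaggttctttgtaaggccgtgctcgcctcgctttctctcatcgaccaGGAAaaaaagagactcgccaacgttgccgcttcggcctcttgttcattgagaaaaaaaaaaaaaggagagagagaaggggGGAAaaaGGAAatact
In the Spry1 window the core matched 1 time and in the Spry2 window 3, all on the printed strand. Of 32851 promoter windows of the same length 93.4% held at least 1 such match, with a median of 3. Neither window held the longer ETS form, the AP-1 site or the cyclic AMP response element, which occurred in 6.91%, 6.75% and 1.55% of all windows. A match is a run of letters and not a measured binding site.

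The 2 Spred genes encode Sprouty-related proteins that bring the RAS inhibitor neurofibromin to the membrane, and they moved in opposite directions. Spred2 stood at 13.2 and 11.1 CPM in the WT pair against 34.0 and 32.4 CPM in the K36M pair, a 2.74-fold rise with no overlap (log2 fold change 1.45 ± 0.08 SE, adjusted p = 3.85e-12). Spred1 stood at 51.0 and 47.7 CPM in the WT pair against 40.7 and 41.3 CPM in the K36M pair. It was 1.21-fold lower, a small difference that still separated the groups (log2 fold change -0.27 ± 0.05 SE, adjusted p = 8.38e-05). The windows before the starts of this divergent pair, marked in the same way, read as follows.
Spred1 (chr2:117120821-117121070, plus strand): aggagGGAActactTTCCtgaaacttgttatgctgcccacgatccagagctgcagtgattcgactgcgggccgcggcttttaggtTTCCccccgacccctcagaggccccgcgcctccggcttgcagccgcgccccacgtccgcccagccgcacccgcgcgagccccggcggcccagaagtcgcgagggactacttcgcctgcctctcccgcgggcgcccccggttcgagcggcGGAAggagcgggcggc
Spred2 (chr11:19924192-19924441, plus strand): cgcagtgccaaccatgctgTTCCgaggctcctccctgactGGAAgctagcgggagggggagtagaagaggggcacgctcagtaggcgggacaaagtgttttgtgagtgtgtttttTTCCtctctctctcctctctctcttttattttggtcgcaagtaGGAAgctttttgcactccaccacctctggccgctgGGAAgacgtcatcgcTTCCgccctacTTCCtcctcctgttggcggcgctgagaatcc
Spred1 had 4 GGAA matches and Spred2 had 7, and neither had any of the longer motifs. The Spred1 window was the richer in G and C (70.8% against 56.0%).

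All 3 ERK phosphatase genes among the 10 rose. Dusp4, which encodes a nuclear phosphatase of ERK, JNK and p38, had the largest fold of the 10 feedback genes. It stood at 1.57 and 1.30 CPM in the WT pair against 92.3 and 85.8 CPM in the K36M pair. In counts this was 39 and 30 reads against 5242 and 2981, a 61.7-fold rise (log2 fold change 5.95 ± 0.09 SE, adjusted p = 4.90e-20) that ranked 221st among the 13162 tested genes ordered from the largest rise down. The authors' deposited table of 594 genes lists Dusp4 with a 57.2-fold ratio of K36M over WT. Dusp6, whose product is a cytoplasmic phosphatase selective for ERK, stood at 3.75 and 4.21 CPM in the WT pair against 13.4 and 13.8 CPM in the K36M pair, 3.41-fold higher (log2 fold change 1.77 ± 0.11 SE, adjusted p = 3.01e-11). Dusp5, which encodes a nuclear phosphatase selective for ERK, stood at 2.86 and 4.08 CPM in the WT pair against 7.54 and 7.14 CPM in the K36M pair. Its rise was the smallest of the 7 (2.13-fold, log2 fold change 1.09 ± 0.14 SE, adjusted p = 9.69e-07), with no overlap although the WT libraries stood apart. An antisense gene (AC137853.2) overlaps the Dusp5 exons in the reference annotation, so reads of the 2 strands may not have been told apart.

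The Dusp6 and Dusp5 windows are shown because both genes rose and their sequences differ in the motifs held.
Dusp6 (chr10:99262981-99263230, plus strand): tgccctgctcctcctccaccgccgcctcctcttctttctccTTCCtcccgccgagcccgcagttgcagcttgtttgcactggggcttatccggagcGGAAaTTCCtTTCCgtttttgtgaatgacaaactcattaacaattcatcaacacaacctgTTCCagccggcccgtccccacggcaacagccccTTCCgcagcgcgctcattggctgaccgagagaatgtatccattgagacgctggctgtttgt
Dusp5 (chr19:53528895-53529144, plus strand): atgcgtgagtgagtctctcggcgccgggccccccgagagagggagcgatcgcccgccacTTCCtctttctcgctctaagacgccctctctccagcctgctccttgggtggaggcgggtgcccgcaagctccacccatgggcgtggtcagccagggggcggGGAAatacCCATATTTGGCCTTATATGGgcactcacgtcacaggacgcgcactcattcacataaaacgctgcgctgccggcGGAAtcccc
Dusp6 held 6 GGAA matches and Dusp5 held 3. Dusp5 also held 2 CArG boxes side by side, the first from 82 to 73 bases and the second from 72 to 63 bases before the start. A CArG box occurred in 1.47% of all promoter windows and in none of the windows of the other 6 matched feedback genes. The longer ETS form, the AP-1 site and the cyclic AMP response element were in none of the windows of the 7 matched genes.

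Both ETS factor genes rose. Etv4 stood at 0.686 and 0.521 CPM in WT, 17 and 12 counts, and at 9.37 and 8.78 CPM in K36M. The groups were far apart, at 14.9-fold (log2 fold change 3.90 ± 0.18 SE, adjusted p = 3.59e-13), the second-ranked fold of the 10. The authors' deposited table lists Etv4 at 13.5-fold, and Dusp4 and Etv4 are the feedback genes that it holds. Its ratios come from the same 4 libraries under other scaling factors and are not a separate measurement. Etv5 was already well expressed, at 14.6 and 14.0 CPM in WT, and stood at 34.8 and 32.3 CPM in K36M. It was 2.35-fold higher (log2 fold change 1.23 ± 0.07 SE, adjusted p = 8.68e-12), with the 4 libraries separated by group.

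Within families, the makeup of the transcripts was compared after dividing CPM by the length of all exons of each gene in kilobases (kb). Among Dusp4, Dusp5 and Dusp6, Dusp4 made up 18.7% and 13.1% of the level per kb in the WT libraries and 81.1% and 80.0% in the K36M libraries. The summed level of these 3 genes was 3.07 and 3.63 CPM per kb in WT and 41.5 and 39.1 CPM per kb in K36M. In WT cells Dusp4 was thus the least abundant of the 3 per kb (0.525 ± 0.070 CPM per kb, SD, n = 2), below Dusp5 (1.41 ± 0.35) and Dusp6 (1.42 ± 0.12), whose levels did not differ beyond their spread. In K36M cells the order was Dusp4 (32.5 ± 1.7), Dusp6 (4.85 ± 0.09) and Dusp5 (2.97 ± 0.11 CPM per kb).

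Spry2 remained the main Sprouty transcript in both groups. Its share per kb was 91.3% and 91.8% in WT and 70.7% and 73.7% in K36M, while that of Spry1 was 6.46% and 7.34% in WT and 28.0% and 25.4% in K36M. Spry4 never exceeded 2.27%. The Spred pair changed order: Spred1 was the more abundant per kb in WT (7.28 ± 0.34 against 2.72 ± 0.33 CPM per kb for Spred2) and Spred2 in K36M (7.47 ± 0.26 against 6.04 ± 0.06). Etv5 exceeded Etv4 in all 4 libraries, but the share of Etv4 was 7.33% and 5.87% in WT and 31.1% and 31.4% in K36M. For each of the 4 shares that grew (Spry1, Spred2, Dusp4 and Etv4) the 2 groups did not overlap, and the two-sided exact permutation p was 0.333 in each of the 4 comparisons, also after adjustment, which is the smallest p that 2 against 2 libraries allow.

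**Figure D3:**
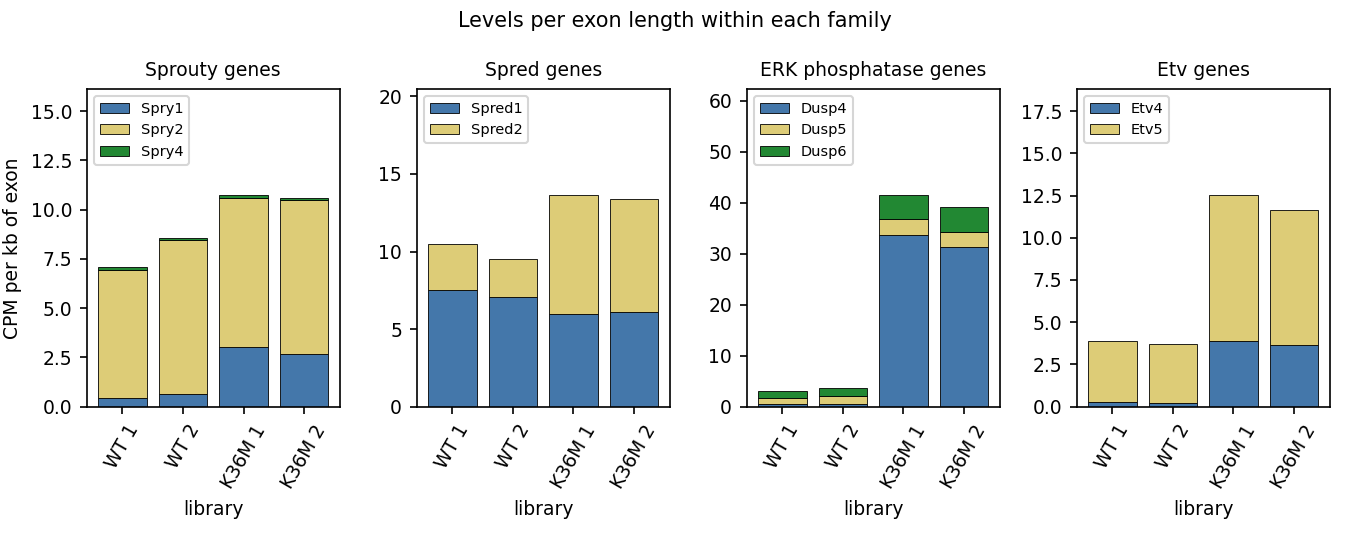
CPM per kb of exon in each of the 4 libraries (bars), stacked by gene, for the Sprouty, Spred, ERK phosphatase and Etv genes, each panel with its own axis from 0. The total of Dusp4, Dusp5 and Dusp6 grows from 3.07 and 3.63 to 41.5 and 39.1 CPM per kb, most of it Dusp4 in K36M. Dusp7, a further ERK phosphatase gene outside the panel, stood at a mean of 9.15 in WT and 10.5 CPM per kb in K36M. Spred2 overtakes Spred1.

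The closest relatives of the feedback genes rose as well, 6 of 6 tested, against 38.5% of all genes tested (median log2 fold change 1.56). Among them, Dusp2 and Dusp9 passed the low-count filter only through their K36M libraries, which favours a call of higher. Spry3 was not analysed here. Etv1, the remaining PEA3-group factor, stood at 1.82 and 1.69 CPM in the WT pair against 7.10 and 7.60 CPM in the K36M pair (log2 fold change 2.05, adjusted p = 2.23e-10). Dusp1, an immediate early phosphatase acting mainly on p38 and JNK, stood at 30.1 and 27.2 CPM in the WT pair against 59.5 and 59.5 CPM in the K36M pair (log2 fold change 1.05, adjusted p = 2.59e-12). Dusp2, a nuclear phosphatase, was low, at 0.605 and 0.217 CPM in WT and 1.67 and 2.53 CPM in K36M (log2 fold change 2.27, adjusted p = 1.14e-05). With 1 library left out its log2 fold change was 1.75 to 3.22, lowest without WT replicate 2 and highest without WT replicate 1. Dusp9, a cytoplasmic ERK phosphatase close to Dusp6, had 2 counts in WT and 118 in K36M, a ratio of 30.8 with a 95% counting interval of 8.34 to 257 (adjusted p = 3.02e-07). Its fitted log2 fold change was 4.83, and 3.83 without WT replicate 1; without WT replicate 2 the remaining WT library had 0 counts and the fitted value, 8.64, depends on the prior count. Spred3 rose from 0.826 and 0.739 CPM per kb to 1.65 and 1.46 CPM per kb (adjusted p = 1.76e-06). Dusp7, the most abundant cytoplasmic ERK phosphatase gene per kb (9.15 ± 0.07 CPM per kb in WT, 10.5 ± 0.5 in K36M), changed least (log2 fold change 0.20, adjusted p = 0.00346), and with the authors' scaling factors it was not past the threshold (adjusted p = 0.0675). Of 5 genes for phosphatases that act mainly on JNK and p38 or lie outside the ERK-selective group, 3 rose and 2 fell (38.5% and 37.1% of all genes tested), with Dusp14 at log2 fold change 1.10, Dusp10 at 0.51 and Dusp16 at -0.69.

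The genes of the kinase cascade itself changed little. Of 18 genes from adaptors to ERK, 4 rose and 7 fell, beside 38.5% higher and 37.1% lower of all genes tested. None changed as much as 2-fold (log2 fold changes -0.47 to 0.42, median -0.07). Of all genes tested, 12.7% were called and at least 2-fold higher, and 8.69% called and at least 2-fold lower. With the authors' scaling factors 2 cascade genes rose and 12 fell, so the balance in this list depends on scaling. Over all genes those factors gave 4360 higher and 5709 lower, against 5070 and 4879 in the main test. Hras stood at 43.6 and 39.9 CPM in the WT pair against 58.1 and 53.5 CPM in the K36M pair (log2 fold change 0.42, adjusted p = 1.63e-06). Gab1, a docking protein below receptors, and Ksr1, a scaffold of the RAF to ERK chain, fell by 0.47 each on the log2 scale (adjusted p = 5.06e-08 and 0.000334).

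Other brakes on RAS or on receptors went both ways, with 7 of 15 higher, 3 lower and 5 not past the threshold (median 0.08), beside 38.5% higher and 37.1% lower of all genes tested. Socs3, a cytokine-induced inhibitor of receptor signalling, stood at 31.5 and 31.9 CPM in the WT pair against 90.2 and 89.9 CPM in the K36M pair (log2 fold change 1.51, adjusted p = 2.54e-15). Il17rd, also called Sef, an antagonist of fibroblast growth factor signalling, stood at 35.5 and 34.6 CPM in the WT pair against 70.9 and 71.1 CPM in the K36M pair (log2 fold change 1.02, adjusted p = 8.80e-13). Rasal2, a RAS GTPase-activating protein gene, stood at 41.7 and 42.7 CPM in the WT pair against 12.03 and 12.69 CPM in the K36M pair (log2 fold change -1.78, adjusted p = 9.29e-15). The other 2 genes that fell, named after their values were seen, also encode RAS GTPase-activating proteins: Rasa3 (log2 fold change -0.92) and Dab2ip (-0.59). Rasa1, Rasa2 and Nf1, genes of the same activity, did not pass the test (0.08, 0.06 and 0.05).

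Most other genes used as ERK outputs rose, 19 of 21, against 38.5% of all genes tested (median log2 fold change 0.76). Of the 21, 9 were called and at least 2-fold higher, beside 12.7% of all genes tested. These include Areg (1 and 0 counts in WT) and Mmp3 (0 and 1), named after their values were seen. Both passed the low-count filter only through their K36M libraries, which favours a call of higher. Dusp10 is counted in this list too, and several of these genes are also driven by other pathways. Lif, a cytokine of the interleukin-6 family, stood at 0.484 and 0.652 CPM in the WT pair against 6.87 and 7.05 CPM in the K36M pair (log2 fold change 3.61, adjusted p = 3.29e-12). Fosl1, the gene of the AP-1 subunit FRA1, stood at 2.34 and 1.78 CPM in the WT pair against 18.5 and 15.6 CPM in the K36M pair (log2 fold change 3.05, adjusted p = 4.38e-13). Hbegf, which encodes a ligand of the epidermal growth factor receptor, stood at 2.34 and 2.22 CPM in the WT pair against 15.3 and 16.7 CPM in the K36M pair (log2 fold change 2.81, adjusted p = 1.62e-13). Their groups did not overlap. The 1 gene that fell was Fos, named after its values were seen: it stood at 8.47 and 11.7 CPM in the WT pair against 2.69 and 2.82 CPM in the K36M pair (log2 fold change -1.87, adjusted p = 9.51e-10). Ier2, likewise named afterwards, did not pass the test (log2 fold change -0.02, adjusted p = 0.744).

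Among growth factor receptor genes, 4 of 15 tested rose and 9 fell (median log2 fold change -0.16), beside 38.5% higher and 37.1% lower of all genes tested. Met, the hepatocyte growth factor receptor gene, stood at 18.1 and 17.2 CPM in the WT pair against 132 and 133 CPM in the K36M pair (log2 fold change 2.91, adjusted p = 5.85e-19). Fgfr2, a fibroblast growth factor receptor gene, stood at 64.0 and 69.3 CPM in the WT pair against 3.22 and 2.45 CPM in the K36M pair (log2 fold change -4.51, adjusted p = 7.42e-19). Fgfrl1, a receptor without a kinase domain, fell by 2.80 on the log2 scale (adjusted p = 1.34e-19). Fgfr1, Fgfr3 and Egfr were named after their values were seen. Fgfr1, the most abundant Fgfr gene by CPM (mean 326 in WT and 322 in K36M), did not pass the test (log2 fold change -0.02, adjusted p = 0.668). Fgfr3 fell from a mean of 61.0 to 8.74 CPM (log2 fold change -2.80) and Egfr from 51.7 to 21.8 CPM (-1.25). Fgfr4, Kit and Ntrk2 were below the low-count filter.

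**Figure D4:**
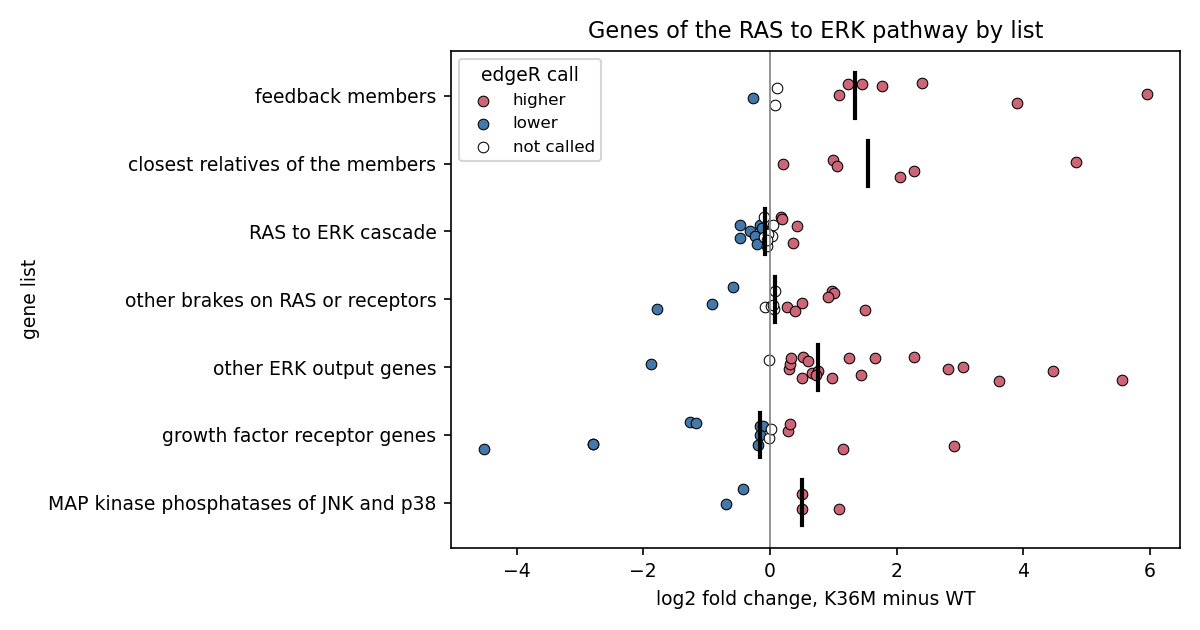
Log2 fold change (K36M minus WT) of each tested gene in 7 lists of the RAS to ERK pathway, coloured by the edgeR call, with a black bar at the list median. The cascade genes lie within -0.47 to 0.42, while the feedback genes, their relatives and the other output genes spread to the right.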

How the data were processed

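Per the file headers, the deposited matrix holds raw expected counts made by the authors with RSEM and used for EBSeq; the submitters' processing notes list Bowtie 1.0.0, RSEM 1.2.12 and mouse build mm9. Their annotation is not stated. A second deposited table holds log2 values and a fold ratio for 594 genes; its log2 values equal log2 of the authors' expected count times a factor per library, plus 1 (largest difference 5e-09).

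Expected counts were rounded and tested with edgeR 4.0.16 (R 4.3.3) on all 4 libraries: low counts removed by filterByExpr, TMM scaling, then the quasi-likelihood F test of the genotype term (K36M over WT, residual df 2, no replicate term), Benjamini-Hochberg adjustment over 13162 genes. The common coefficient of variation was 3.33%. CPM use TMM effective library sizes, and standard errors are the log2 fold change over the square root of F. The test was also run on simulated counts with the same variation for every gene and few changed genes. In these data 75.6% of genes were called, so that run cannot show how the test behaves here. Chi-square per gene between same-group libraries averaged 3.68 (WT) and 7.41 (K36M) on 1 degree of freedom, above counting noise. All 4 were counted as separate libraries, but such spread cannot tell separate cultures from technical repeats. Counting intervals (Clopper-Pearson) cover counting error only, since reads carried no molecular identifiers. Exon lengths came from the GENCODE M21 basic set on GRCm38, not the authors' build. Hras and Map2 are listed as Hras1 and Mtap2, synonyms in the RefSeq table.

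The members and gene lists were chosen with earlier results of these data known. Genes named are the 10 feedback genes, their closest relatives and, in each other list, the 3 with the largest absolute log2 fold change among called genes with non-overlapping groups and a mean of at least 1 CPM; others are said to be named after their values were seen. Alternatives were other scalings, the DESeq2 1.42.0 Wald test, other filters, thinning, a replicate block and leaving out each library.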

Additional observations from a re-analysis of the deposited data

How the results depend on the processing

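Of 395 values of the 31 named genes under 13 alternatives, 389 kept their direction and side of the threshold, including all values of the 7 feedback genes that rose and of Spred1; for Spry1, Spry4 and Etv4 the filter at a mean of 5 CPM gave no value. The 6 that did not concern Spry2 (log2 fold change -0.035 without WT replicate 1 and 0.24, adjusted p = 0.0372, without WT replicate 2), Spry4 (-0.0071 with the authors' factors, and -0.38 to 0.76 with 1 library left out, the lowest without K36M replicate 1 and -0.38 also without WT replicate 2) and Dusp7 (0.12 with the authors' factors). With 1 library left out, 7 to 8 feedback genes were called higher and 1 lower; the lone library of a group is then assumed to vary like the others. A mean of 5 CPM left 2 relatives called higher, as fewer were tested. The authors' factors gave 2 cascade genes higher and 12 lower. Over all genes they gave 4360 higher and 5709 lower, against 5070 and 4879 in the main test. The median log2 fold change over all genes was -0.083 with them and 0.0035 in the main test. The cause of the shift in the cascade list was not tested. Thinning every library to the smallest total gave 7 feedback genes higher and 1 lower. With the replicate number as a block, 7 were higher and 1 lower, and over all genes 5008 were higher and 4796 lower; same-numbered libraries did not deviate together (r = 0.0023 across 13162 genes), so the numbers were not taken as pairs. Depth limits Spry4, at 8 to 40 counts.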
